A study of Mus musculus with 9 samples.

Results

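Basement membranes are thin sheets of extracellular matrix that underlie epithelia and endoderm. Laminins are heterotrimers of 1 α, 1 β and 1 γ chain that are joined in the endoplasmic reticulum, secreted, and polymerise at the cell surface. Nidogens bind the laminin γ1 chain and type IV collagen, and the heparan sulfate proteoglycans perlecan and agrin link the laminin network to collagen, growth factors and cell-surface dystroglycan. Parietal endoderm lays down Reichert's membrane, a thick basement membrane of the early rodent conceptus. Extra-embryonic endoderm stem (XEN) cells are a cultured line of extra-embryonic endoderm. The 9 genes described here encode the laminin chains α1 (Lama1), α5 (Lama5), β1 (Lamb1), β2 (Lamb2) and γ1 (Lamc1), nidogen 1 and 2 (Nid1, Nid2), perlecan (Hspg2) and agrin (Agrn). They are a list of named genes, drawn up with earlier results of these data known, and are 9 of the 55401 genes in the count table. All 9 passed the filter on low counts and were among the 15331 genes tested.

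RNA-seq libraries came from a mouse XEN line bred from M. m. molossinus and M. musculus, labelled female except where the WT_clone labels give no sex. The study set cells with a deletion upstream of Xist against wild-type cells, and the question taken from its title is whether genes away from the X chromosome change as well. DXp libraries (n = 2) carry the deletion on the paternal X, DXp_DXm libraries (n = 2) carry it on both X chromosomes, WT_clone libraries (n = 2) come from wild-type clones 1 and 2, and WT_EV libraries (n = 3) are wild type. The titles give both DXp libraries the code D1 and both DXp_DXm libraries the code D3. If each code is a single clone, genotype and clone cannot be told apart. The sources used here do not say what EV means. Whether the WT_EV libraries are separate cultures is not stated, and p-values then measure only a spread between samples that may be technical. All 9 genes are autosomal. Lama1 is on chromosome 17, Lama5 on 2, Lamb1 on 12, Lamb2 on 9, Lamc1 on 1, Nid1 on 13, Nid2 on 14, and Hspg2 and Agrn are both on 4. The WT_clone table was held for 11512 genes, 3446 of them on chromosome 1, and 1 further row was broken off. It contained Lama5 and Lamc1 but none of the other 7, whose absence says nothing of their expression.

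Total counts were 24586135 and 29335803 in DXp libraries, 25589912 and 27334893 in DXp_DXm libraries and 14352719 to 19833044 in WT_EV libraries. Xist itself had 338652 and 400096 counts in DXp libraries, 131675 and 227870 in DXp_DXm libraries and 12244 to 26048 in WT_EV libraries. The ends of the deletion are not given, so no count checks the deletion itself. Transcripts of replication-dependent histone genes, which lack a poly(A) tail, took 0.00190% and 0.00686% of counts in DXp libraries, 0.00129% and 0.00224% in DXp_DXm libraries, and 0.984% to 2.47% in WT_EV libraries. Across all tested genes the change against WT_EV followed the GC content of the exons. Its median in DXp was 2.04 on the log2 scale for genes under 42% GC, 0.98 at 42 to 48%, -1.20 at 48 to 54%, -3.42 at 54 to 60% and -4.67 at 60% and over. In DXp_DXm the same medians were 1.65, 0.92, -0.77, -3 and -4.68. The labels name the library kits NEBNext Ultra and Tru-seq stranded, but not which library used which. How the RNA was selected for each library is not given either. Neither kit nor RNA selection can be told apart from the deletion. Each change of the 9 genes against WT_EV is therefore given as counted, and again with offsets that remove each library's trend over GC content and gene length. Those offsets also remove any true difference that runs along GC content or length.

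The label of XEN cells was checked against marker genes. All 8 primitive endoderm markers on the list, among them Gata4, Gata6 and Sox17, were expressed, with a summed level of 2950 to 5040 CPM (the count relative to the TMM-scaled library total) in DXp, 2950 to 3010 CPM in DXp_DXm and 3080 to 3180 CPM in WT_EV libraries. These sums hide opposite changes. As counted against WT_EV, 2 of the 8 were called higher and 3 lower in DXp, and 2 higher and 4 lower in DXp_DXm. Of all tested genes, 32.2% were called higher and 40.1% lower in DXp, and 30.9% and 36% in DXp_DXm. With the GC and length offsets 4 of the 8 were higher and 1 lower in DXp, and 2 higher and 0 lower in DXp_DXm. The shares of all tested genes were then 24.7% and 27% in DXp, and 21.6% and 22% in DXp_DXm. Gata4, an endoderm transcription factor, had 106 and 158 CPM in DXp, 115 and 89.2 CPM in DXp_DXm, and 699, 640 and 779 CPM in WT_EV libraries, but was not called with the GC and length offsets. The 8 parietal endoderm markers were all abundant enough to test. Thbd, however, had at most 0.954 CPM in any library and 0 counts in DXp replicate 2. Their sums were 4500 to 6810 CPM in DXp, 5180 to 7550 CPM in DXp_DXm and 4630 to 5400 CPM in WT_EV. Sparc was the largest part of each sum, at 2187 to 5057 CPM over the 7 libraries. Fst had 942 to 2686 CPM in deletion libraries and 52.2 to 274 CPM in WT_EV libraries. As counted, 1 of the 8 was called higher and 3 lower in each deletion group. With offsets 3 were higher and 3 lower in DXp, and 1 higher and 2 lower in DXp_DXm. The 10 visceral endoderm markers, of which 5 were abundant enough to test, summed to 397 to 419 CPM in DXp, 423 to 1780 CPM in DXp_DXm and 194 to 331 CPM in WT_EV. Most of each sum was Cubn, a receptor of absorptive epithelia, with 376 and 395 CPM in DXp, 401 and 1762 CPM in DXp_DXm, and 244, 131 and 274 CPM in WT_EV libraries. As counted, the other 4 tested markers were all called lower in both deletion groups. The median of the 5 was -2.64 in DXp and -2.01 in DXp_DXm. With offsets 1 of the 5 was higher and 1 lower in DXp, and 1 higher and 2 lower in DXp_DXm. Their medians were then -1.48 and -2.21. The part of these marker differences in the results on the 9 genes was not tested. Fibroblasts also make these matrix proteins. The 9 fibroblast markers, with Col1a1, Col1a2 and Col3a1 among them, summed to 0.502 to 1.69 CPM in DXp, 0.581 to 1.49 CPM in DXp_DXm and 0.591 to 1.14 CPM in WT_EV libraries, and 5 of the 9 had 0 counts in all 7 libraries. The 6 pluripotency markers summed to at most 0.759 CPM and the 7 trophoblast markers to at most 1.85 CPM in any library.

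The exons of the 9 genes differ widely in base composition. In order of exonic GC content they are Nid1 (48.1%), Lamb1 (49.2%), Lamc1 (51.6%), Lama1 (53.7%), Nid2 (54.1%), Agrn (57.1%), Lamb2 (58.3%), Lama5 (59.9%) and Hspg2 (60.8%). Promoter sequences from RefSeq (GRCm38.p6, 250 bases before to 50 after a start site) were matched for 6 members, Lama5, Lamb1, Lamb2, Nid1, Hspg2 and Agrn, the last with 2 start sites. Shown are those of Nid1, the gene higher in deletion cells, Hspg2, the gene with the largest decrease, and Lamb2, which was lower too but has the least GC-rich promoter of the 7 windows. Capitals mark the GC box, GGGCGG on either strand, the letters bound by SP1-type factors.
Nid1 (GRCm38.p6, chr13:13437352-13437651, plus strand): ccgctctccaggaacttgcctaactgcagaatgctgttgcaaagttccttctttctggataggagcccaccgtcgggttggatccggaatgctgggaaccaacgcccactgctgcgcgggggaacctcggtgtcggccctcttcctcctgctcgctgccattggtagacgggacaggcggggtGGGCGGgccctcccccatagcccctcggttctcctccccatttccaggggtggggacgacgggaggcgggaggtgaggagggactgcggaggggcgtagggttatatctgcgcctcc
Hspg2 (GRCm38.p6, chr4:137468553-137468852, plus strand): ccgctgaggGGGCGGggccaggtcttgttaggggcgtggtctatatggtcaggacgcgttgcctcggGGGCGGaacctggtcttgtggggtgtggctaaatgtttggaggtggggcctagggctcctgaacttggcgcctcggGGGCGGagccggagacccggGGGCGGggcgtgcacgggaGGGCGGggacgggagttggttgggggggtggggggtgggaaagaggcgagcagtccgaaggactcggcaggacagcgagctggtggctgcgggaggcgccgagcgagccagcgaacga
Lamb2 (GRCm38.p6, chr9:108479612-108479911, plus strand): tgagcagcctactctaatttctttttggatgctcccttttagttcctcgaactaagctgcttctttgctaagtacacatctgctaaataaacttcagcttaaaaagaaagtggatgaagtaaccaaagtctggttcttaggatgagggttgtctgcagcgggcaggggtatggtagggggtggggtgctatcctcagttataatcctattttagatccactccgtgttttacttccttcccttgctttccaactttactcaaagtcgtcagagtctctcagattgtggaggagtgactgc
The Nid1 window was 64.7% GC with 1 GC box, and the Hspg2 window 70.3% GC with 5 GC boxes. By contrast the Lamb2 window, although Lamb2 has GC-rich exons and was lower in deletion cells, was 44% GC and held no GC box. Windows of Lama5 (72.7% GC) and Lamb1 (63.7% GC) held 4 and 2 GC boxes, and those of Agrn (83.3% and 61.3% GC) held 12 and 2. Over all 32851 RefSeq promoter windows the median was 52.7% GC and 35.7% held a GC box. The letters of a GATA site, AGATAA, occurred on either strand in none of the 7 member windows and in 11.2% of all windows. Those of a SOX site, ACAATG, were likewise in none of the 7 and in 12.6% of all windows. A TATA box, TATAAA, was in none of the 7 and in 13.6% of all windows.

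Per kilobase of exon, the chains of the α1β1γ1 trimer made up most of the RNA of these genes. Levels of different genes are compared as CPM divided by exonic length. Lama1, Lamb1 and Lamc1 together held 59.1% and 76.8% of the summed CPM per kb of the 9 genes in DXp libraries, 80.6% and 76.3% in DXp_DXm libraries, and 85.6%, 87.5% and 87.4% in WT_EV libraries. Among 15331 tested genes, Lamc1 ranked 33 and 11 by CPM per kb in DXp libraries, 23 and 22 in DXp_DXm libraries, and 45, 28 and 45 in WT_EV libraries. In DXp the order was Lamc1 (871 ± 289 CPM per kb), Nid1 (649 ± 124), Lamb1 (570 ± 190), Lama1 (379 ± 200), Nid2 (150 ± 45.0), Agrn (6.69 ± 4.90), Hspg2 (2.44 ± 0.289), Lama5 (1.37 ± 0.288) and Lamb2 (1.03 ± 0.0443; mean ± SD, n = 2). Each of the first 3 overlapped the next in its libraries, and the others did not. In DXp_DXm the order was Lamc1 (792 ± 103 CPM per kb), Lamb1 (493 ± 57.6), Lama1 (386 ± 20.7), Nid1 (322 ± 36.7), Nid2 (129 ± 25), Agrn (5.94 ± 1.84), Hspg2 (2.05 ± 0.396), Lama5 (0.648 ± 0.644) and Lamb2 (0.615 ± 0.0470; n = 2). Only Lama5 and Lamb2 overlapped there. In WT_EV it was Lama1 (1013 ± 81.8 CPM per kb), Lamc1 (749 ± 41.9), Lamb1 (577 ± 66.5), Nid2 (149 ± 16.1), Hspg2 (84.3 ± 8.00), Nid1 (73.6 ± 10.4), Agrn (19.9 ± 2.53), Lama5 (15.7 ± 3.74) and Lamb2 (11.7 ± 2.19; n = 3). There Hspg2 overlapped Nid1, Agrn overlapped Lama5 and Lama5 overlapped Lamb2. A level per kb also carries the GC trend, so the order between genes is that of the libraries as made.

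**Figure D1:**
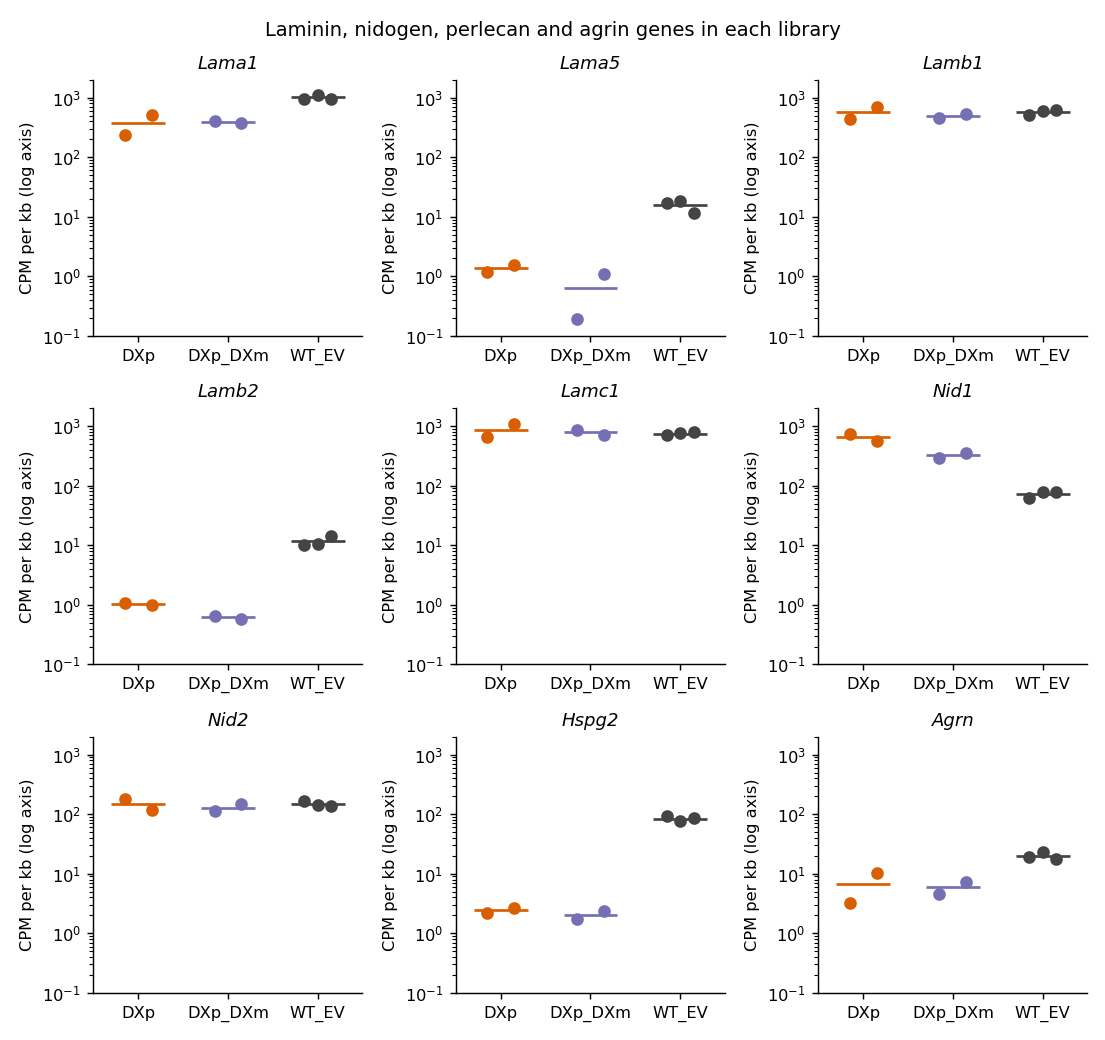
CPM per kb of exon on a log axis for each gene, with 1 point per library and a line at the group mean. Lamb1, Lamc1 and Nid2 overlap between deletion and WT_EV libraries, Nid1 lies higher in all 4 deletion libraries than in any WT_EV library, as 31.7% of all tested genes do, and the other 5 genes lie lower in all 4, as 38.9% of tested genes do.

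Against WT_EV, 6 of the 9 genes changed in DXp cells, Nid1 upwards and Lama1, Lama5, Lamb2, Hspg2 and Agrn downwards. The same 6 genes changed in the same directions in DXp_DXm cells. A change was called at an adjusted p under 0.05 in edgeR's quasi-likelihood test, with Benjamini-Hochberg adjustment over all tested genes. In DXp, 72.3% of all tested genes were called (32.2% higher and 40.1% lower), and in DXp_DXm 66.8% were (30.9% higher and 36% lower). A count of 6 of 9 is close to both backgrounds. The median change of the 9 genes was -1.42 on the log2 scale in DXp and -1.39 in DXp_DXm, beside -0.35 and -0.15 for all tested genes. With the offsets, 4 members were higher and 1 lower in DXp, where 51.7% of tested genes were called (24.7% higher and 27% lower). In DXp_DXm 3 were higher and 2 lower, where 43.6% of tested genes were called (21.6% higher and 22% lower). The medians were then 0.18 in DXp and 0.09 in DXp_DXm, beside -0.10 and 0.00 for all tested genes. The DXp and DXp_DXm comparisons share the WT_EV libraries. In these bulk samples, fewer cells of a type and less RNA per cell cannot be told apart.

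Of the 3 chains of the major trimer, Lama1 was called as counted and Lamb1 and Lamc1 were not. Lama1, the α chain of the early embryonic laminin whose N-terminal domain takes part in polymerisation and whose C-terminal domains bind integrins and dystroglycan, had 2296 and 5033 CPM in DXp, 3879 and 3596 CPM in DXp_DXm, and 9368, 10720 and 9329 CPM in WT_EV libraries. Every deletion library lay below every WT_EV library, with DXp replicate 1 the lowest. The log2 change was -1.42 (SE 0.34, 95% interval -2.36 to -0.48, adjusted p = 0.00361) in DXp and -1.39 (SE 0.34, interval -2.33 to -0.45, adjusted p = 0.00458) in DXp_DXm. With offsets the log2 change of Lama1 was 0.18 (adjusted p = 0.589) in DXp and 0.09 (adjusted p = 0.792) in DXp_DXm, so neither was called.

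Lamb1, the β chain that joins α1 and γ1 in the coiled coil, had 4320 and 6979 CPM in DXp, 4488 and 5296 CPM in DXp_DXm, and 4988, 5903 and 6269 CPM in WT_EV libraries. The groups overlapped. Its log2 change was -0.02 (95% interval -0.78 to 0.75, adjusted p = 0.957) in DXp and -0.23 (interval -0.99 to 0.54, adjusted p = 0.488) in DXp_DXm, and offsets gave -0.05 and -0.36, also not called. Lamc1, the γ chain that carries the nidogen-binding site, had 5513 and 8894 CPM in DXp, 7154 and 5949 CPM in DXp_DXm, and 5821, 6260 and 6506 CPM in WT_EV libraries. Here too the groups overlapped, and the 2 DXp libraries bracketed all the others. Lamc1 was not called as counted, with log2 changes of 0.22 (interval -0.53 to 0.97, adjusted p = 0.483) in DXp and 0.08 (interval -0.67 to 0.83, adjusted p = 0.806) in DXp_DXm. With offsets it was higher in both, by 1.07 (SE 0.22, adjusted p = 0.00322) in DXp and 0.74 (SE 0.22, adjusted p = 0.0228) in DXp_DXm on the log2 scale. Gm38009, an unclassified transcript on the same strand inside Lamc1, had at most 1103 counts in any library.

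Ratios within a library do not depend on its total, although they still carry the difference in GC content between genes. Lamc1 over Lamb1 in CPM per kb was 1.53 and 1.53 in DXp, 1.91 and 1.35 in DXp_DXm, and 1.40, 1.27 and 1.24 in WT_EV libraries. The ratio of these neighbours in GC content was higher in the DXp libraries than in any WT_EV library, and overlapped between DXp_DXm and WT_EV. It spanned 1.24 to 1.91 over all 7 libraries. Lama1 over Lamb1 was 0.545 and 0.739 in DXp, 0.885 and 0.696 in DXp_DXm, and 1.92, 1.86 and 1.52 in WT_EV libraries. Thus RNA of the α1 chain was below that of β1 in each deletion library and above it in each WT_EV library. No test was run on these ratios, since an exact permutation test of 2 against 3 libraries cannot reach 0.05.

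**Figure D2:**
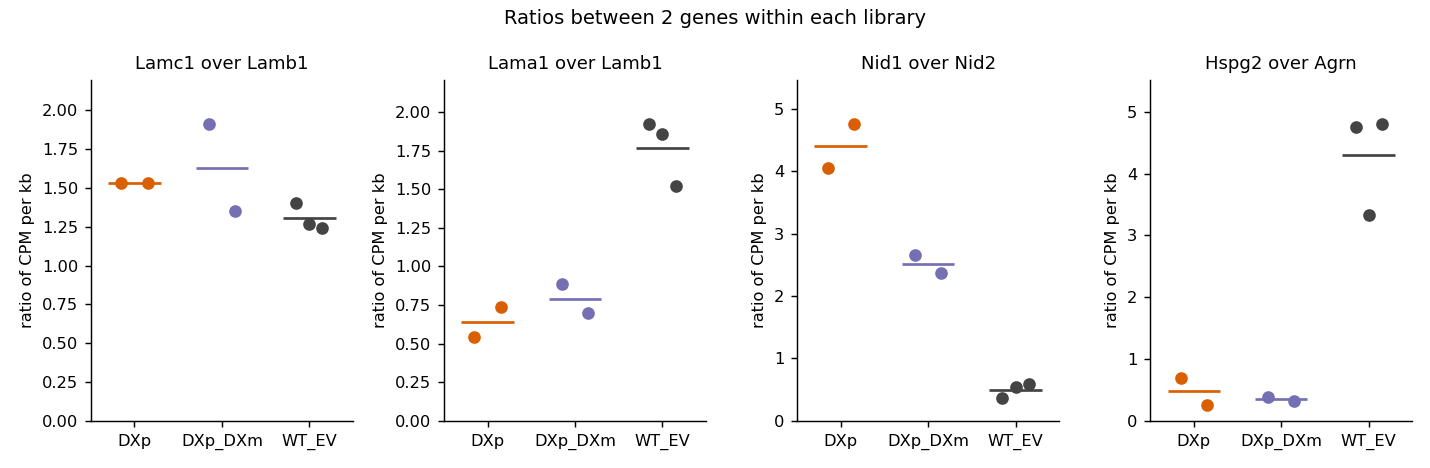
Ratios of CPM per kb between 2 genes in each library, with a line at the group mean. Lamc1 over Lamb1 spans 1.24 to 1.91 in all 7 libraries, Lama1 over Lamb1 and Hspg2 over Agrn are lower in deletion libraries, and Nid1 over Nid2 is higher.

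The alternative chains α5 and β2 were far below α1 and β1 per kb in all groups and lower in deletion cells. Lama5, the α chain of many epithelial and endothelial basement membranes, had 13.2 and 17.9 CPM in DXp, 2.20 and 12.6 CPM in DXp_DXm, and 197, 209 and 130 CPM in WT_EV libraries. All deletion libraries lay below all WT_EV libraries, and DXp_DXm replicate 1 was the lowest of all. The log2 change was -3.52 (SE 0.66, 95% interval -5.35 to -1.69, adjusted p = 0.00124) in DXp and -4.59 (SE 0.70, interval -6.54 to -2.64, adjusted p = 0.00046) in DXp_DXm. With offsets it was -0.48 (adjusted p = 0.465) in DXp and -1.50 (interval -3.04 to 0.03, adjusted p = 0.055) in DXp_DXm, neither called. Lamb2, the β chain known from neuromuscular junctions and the kidney glomerulus, had 6.44 and 6.06 CPM in DXp, 3.94 and 3.54 CPM in DXp_DXm, and 62.2, 65.1 and 86.6 CPM in WT_EV libraries. Replicates lay close together, and the groups were well apart. Lamb2 fell by 3.51 on the log2 scale in DXp (SE 0.30, adjusted p = 7.3e-06) and by 4.25 in DXp_DXm (SE 0.32, adjusted p = 8.28e-06). With offsets the log2 change was -0.65 in DXp (adjusted p = 0.12), not called, and -1.45 in DXp_DXm (interval -2.38 to -0.51, adjusted p = 0.00763), still lower. Relative to the major chain of its kind, Lama5 was 0.00302 to 0.00490 times Lama1 per kb in DXp, 0.000482 and 0.00297 times in DXp_DXm, and 0.0118 to 0.0179 times in WT_EV libraries. Lamb2 was 0.00142 and 0.00243 times Lamb1 in DXp, 0.00109 and 0.00143 times in DXp_DXm, and 0.0180 to 0.0225 times in WT_EV libraries.

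The nidogens, which tie laminin γ1 to type IV collagen, differed in their calls, with Nid1 higher and Nid2 not called as counted. Nid1 had 5114 and 3901 CPM in DXp, 2054 and 2414 CPM in DXp_DXm, and 428, 552 and 554 CPM in WT_EV libraries. It was the member that was higher in all 4 deletion libraries than in any WT_EV library, and the DXp libraries lay above the DXp_DXm libraries. The log2 change was 3.14 (SE 0.25, 95% interval 2.44 to 3.84, adjusted p = 5.49e-06) in DXp, an 8.82-fold increase, and 2.13 (SE 0.25, interval 1.45 to 2.81, adjusted p = 5.19e-05) in DXp_DXm, a 4.37-fold increase. Offsets left it higher in both, by 2.86 (adjusted p = 8.34e-05) in DXp and 1.72 (adjusted p = 0.000852) in DXp_DXm. The 1700 other tested genes within 1 percentage point of its GC content had an interquartile range of -1.23 to 1.10 in DXp and of -0.69 to 1.04 in DXp_DXm, below Nid1 in each. An antisense gene within Nid1, Gm48682, had at most 25 counts in any library.

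Nid2 had 942 and 613 CPM in DXp, 577 and 759 CPM in DXp_DXm, and 862, 750 and 701 CPM in WT_EV libraries. The groups overlapped, with log2 changes of 0.01 (95% interval -0.71 to 0.73, adjusted p = 0.971) in DXp and -0.21 (interval -0.93 to 0.52, adjusted p = 0.501) in DXp_DXm. With offsets Nid2 was higher, by 1.98 (SE 0.28, adjusted p = 0.000482) in DXp and 1.5 (SE 0.28, adjusted p = 0.00259) in DXp_DXm. As counted, the 1401 other tested genes within 1 point of its GC content had an interquartile range of -3.77 to -1.27 in DXp and of -3.17 to -0.99 in DXp_DXm, below Nid2 in each. The 3′ end of Nid2 overlaps Rtraf on the other strand, which had up to 8072 counts. The strand setting of the counting is not given, so reads of both genes in that stretch may be mixed. Nid1 over Nid2 in CPM per kb was 4.05 and 4.75 in DXp, 2.65 and 2.37 in DXp_DXm, and 0.369, 0.548 and 0.589 in WT_EV libraries. As counted, nidogen 1 RNA was thus the more abundant of the pair in each deletion library and the less abundant in each WT_EV library. The ratio also carries the difference in GC content between Nid1 (48.1%) and Nid2 (54.1%). With offsets the changes of Nid1 and Nid2 were 2.86 and 1.98 in DXp, and 1.72 and 1.5 in DXp_DXm.

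Of the proteoglycans, perlecan showed the largest change of the 9 genes as counted in both comparisons. With offsets that held in DXp_DXm, while in DXp the change of Nid1 was larger (2.86). Hspg2 had 32.9 and 39.0 CPM in DXp, 26.0 and 34.3 CPM in DXp_DXm, and 1349, 1116 and 1263 CPM in WT_EV libraries. The groups were far apart and replicates close. Hspg2 fell by 5.11 on the log2 scale in DXp (SE 0.29, 95% interval -5.92 to -4.30, adjusted p = 4.46e-06). In DXp_DXm its log2 change was -5.36 (SE 0.30, interval -6.19 to -4.54, adjusted p = 5.37e-06). These are decreases of 34.6-fold and 41.2-fold. With offsets it was still lower, with log2 changes of -2 (interval -2.66 to -1.34, adjusted p = 0.000223) in DXp and -2.12 (interval -2.79 to -1.46, adjusted p = 0.000324) in DXp_DXm, or 4-fold and 4.36-fold. As counted, Hspg2 lay inside the interquartile range of the 277 other tested genes within 1 point of its GC content, which was -5.53 to -3.23 in DXp and -5.75 to -3.30 in DXp_DXm.

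Agrn, which clusters acetylcholine receptors at the neuromuscular junction and binds laminin and dystroglycan in epithelia, had 29.9 and 94.2 CPM in DXp, 43.0 and 67.3 CPM in DXp_DXm, and 179, 211 and 166 CPM in WT_EV libraries. All deletion libraries were below all WT_EV libraries, with DXp replicate 1 the lowest. Agrn fell by 1.58 on the log2 scale in DXp (SE 0.44, adjusted p = 0.00900) and by 1.75 in DXp_DXm (SE 0.45, adjusted p = 0.00617). In fits that leave 1 library in a group, its spread is taken from the other groups. Without DXp replicate 1 the DXp change was -0.86 and was not called (adjusted p = 0.0645). Without DXp_DXm replicate 1 the DXp_DXm change was -1.38 and was not called either (adjusted p = 0.0731). With offsets the direction turned. Agrn was then 0.96 higher in DXp (95% interval -0.03 to 1.94, adjusted p = 0.0472), and 0.80 higher in DXp_DXm without a call (adjusted p = 0.0965). Hspg2 over Agrn in CPM per kb was 0.694 and 0.260 in DXp, 0.381 and 0.321 in DXp_DXm, and 4.76, 3.33 and 4.8 in WT_EV libraries.

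**Figure D3:**
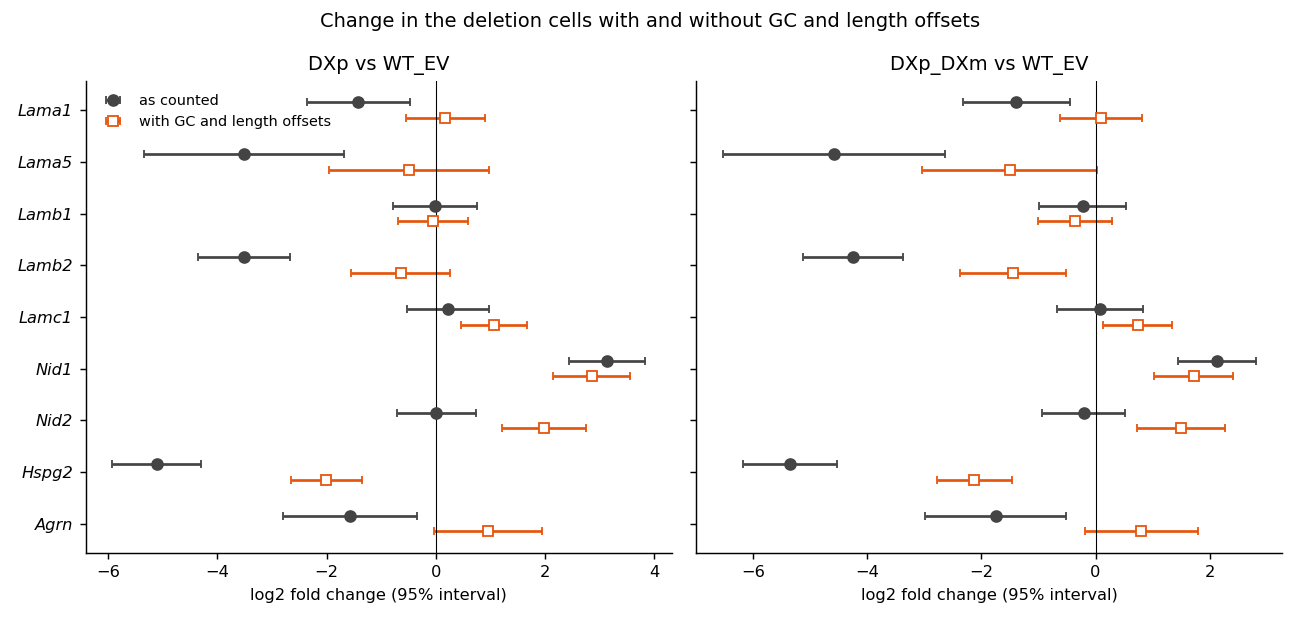
Log2 change of each gene in DXp (left) and DXp_DXm (right) against WT_EV with its 95% interval, as counted (circles) and with GC and length offsets (squares). Nid1 stays higher and Hspg2 lower under both, while Lama1 and Agrn cross 0 in both panels and Nid2 crosses 0 in DXp_DXm.

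Among the 9 genes the size of the change followed exonic GC content. Spearman's rho was -0.92 and Pearson's r -0.93 over the 9 genes in DXp, and -0.92 and -0.94 in DXp_DXm. With offsets rho was -0.73 in DXp and -0.70 in DXp_DXm. All genes in a comparison share the same libraries, so these are descriptions without a test. Each member was also set beside the other tested genes within 1 percentage point of its GC content, a window chosen after the data were seen. In both DXp and DXp_DXm, 5 of the 9 members lay within the interquartile range of those genes (Lama1, Lama5, Lamb1, Lamb2 and Hspg2), and 4 lay above it (Lamc1, Nid1, Nid2 and Agrn). Lamc1 was close to the upper quartile, at 0.22 beside -0.21 in DXp and 0.08 beside -0.08 in DXp_DXm.

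**Figure D4:**
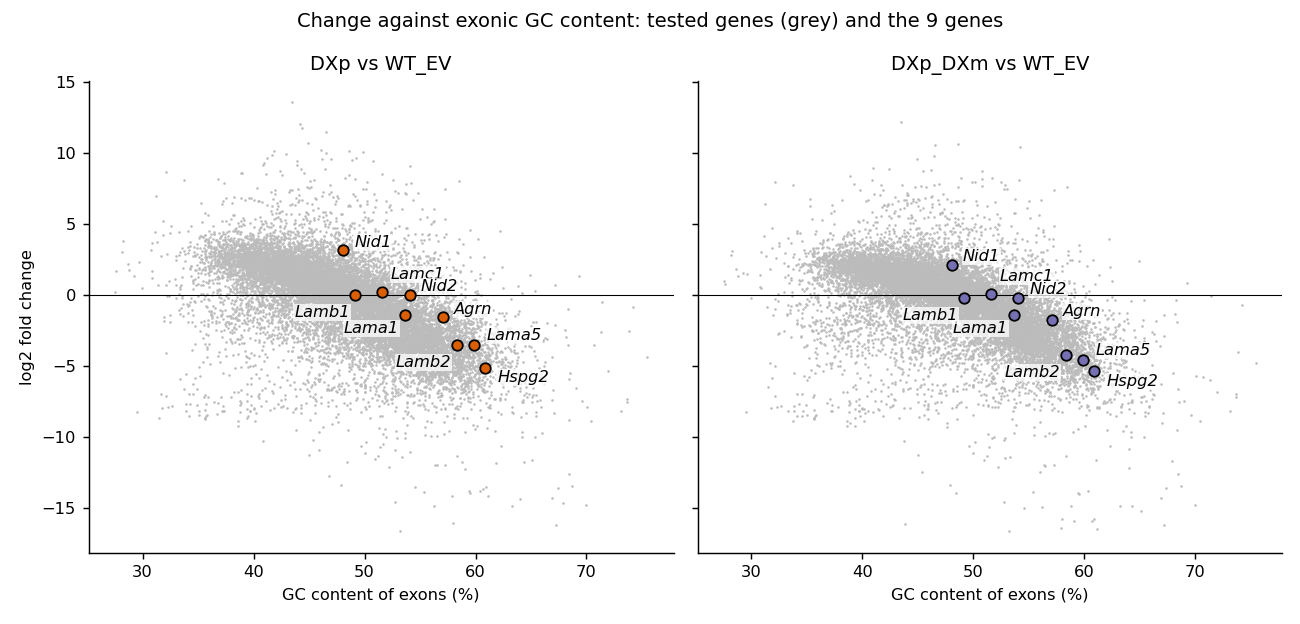
Log2 change against WT_EV by exonic GC content for all tested genes (grey) and the 9 genes (coloured), in DXp (left) and DXp_DXm (right). The changes fall with GC content, and Lamc1, Nid1, Nid2 and Agrn lie above the middle of the grey cloud at their GC content.

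Between the homozygous and the paternal deletion, edgeR's test called 0 of the 9 genes, where it called 0.444% of all tested genes. An unadjusted p under 0.05 was reached by 2 of them, Nid1 and Lamb2, and by 20.8% of all tested genes. DESeq2 called 1 of the 9 and 7.61% of tested genes. The CPM of 3 members did not overlap between the 2 groups, nor did those of 50.4% of tested genes. The gene called by DESeq2 was Nid1, which had 2054 and 2414 CPM in DXp_DXm libraries against 5114 and 3901 CPM in DXp libraries, without overlap. Its log2 difference was -1.01 (SE 0.27, 95% interval -1.77 to -0.26, adjusted p = 0.0888 in edgeR), against -1.13 (adjusted p = 0.0096) in DESeq2. Lamb2 differed by -0.74 (interval -1.56 to 0.08, adjusted p = 0.193), also without overlap of the 2 groups. Lama5 differed by -1.07 (interval -2.85 to 0.70, adjusted p = 0.374). Without DXp_DXm replicate 2, which leaves replicate 1 with its 2.20 CPM, the Lama5 difference was -2.82 (adjusted p = 0.0453), a value that rests on 1 DXp_DXm library with the spread of the other groups. For the other 6 genes the difference lay between -0.25 (Hspg2) and 0.03 (Lama1), and their widest interval, that of Agrn, ran from -1.44 to 1.10. The median of the 9 genes was -0.22, beside 0.02 for all tested genes.

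Against WT_clone, Lama5 was lower in both deletion groups, and Lamc1 was not called. CPM for these comparisons were computed over the shared genes alone, so they are not on the scale of those above. Lama5 had 57.9 and 79.1 CPM in DXp, 9.25 and 55.4 CPM in DXp_DXm, 531 and 947 CPM in WT_clone, and 1126, 1188 and 746 CPM in WT_EV libraries. Both WT_clone libraries were above all deletion libraries, and they overlapped WT_EV. The log2 change was -3.43 (SE 0.70, 95% interval -5.22 to -1.64, adjusted p = 0.00377) in DXp and -4.51 (SE 0.74, interval -6.40 to -2.62, adjusted p = 0.00184) in DXp_DXm, each against WT_clone. Of the 3302 shared genes tested, 40.2% were called in DXp and 25% in DXp_DXm. Without DXp replicate 1 the DXp change was -3.20 and not called (adjusted p = 0.0503). With offsets it was -1.09 in DXp (adjusted p = 0.26) and -2.06 in DXp_DXm (interval -3.71 to -0.41, adjusted p = 0.0884), neither called, where 16.9% and 6.07% of shared genes were. WT_clone against WT_EV gave -0.46 (interval -1.97 to 1.04, adjusted p = 0.571) for Lama5, in a comparison where 30.6% of shared genes were called. Here too the medians ran with GC content, at 1.19 under 42% GC and -3.35 at 60% and over in DXp against WT_clone.

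Lamc1 separated the 2 wild-type clones. It had 24120 and 39340 CPM in DXp, 30110 and 26220 CPM in DXp_DXm, 123900 and 28000 CPM in WT_clone, and 33320, 35670 and 37430 CPM in WT_EV libraries. The first WT_clone library stood alone, with 821202 Lamc1 counts, 10.8% of its counts over the shared genes, against 2.84% in the second and 1.86% to 4.72% in the other 7 libraries. Its log2 change against WT_clone was -1.26 (95% interval -2.67 to 0.15, adjusted p = 0.0908) in DXp and -1.43 (interval -2.85 to -0.01, adjusted p = 0.082) in DXp_DXm. Without WT_clone replicate 1 these were 0.19 and 0.05, and without WT_clone replicate 2 they were -1.97 (adjusted p = 0.00102) and -2.15 (adjusted p = 0.000891). In each of these fits WT_clone is a single library, assumed to vary like the other groups, so the p-values do not measure the spread between clones. WT_clone against WT_EV gave 1.10 (interval -0.16 to 2.35, adjusted p = 0.106), with -0.32 when WT_clone replicate 1 was left out and 1.82 (adjusted p = 0.00330) when replicate 2 was. WT_clone replicate 1 alone sets the direction of these 3 Lamc1 values.

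**Figure D5:**
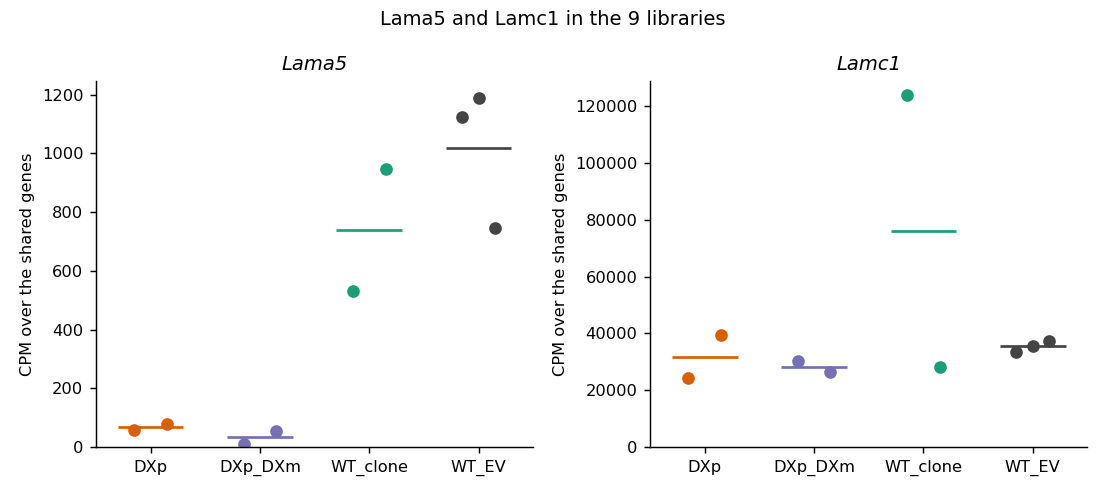
CPM over the shared genes of Lama5 (left) and Lamc1 (right) in all 9 libraries, with a line at the group mean. Lama5 is 9.25 to 79.1 CPM in deletion libraries and 531 CPM or more in WT_clone and WT_EV libraries, and 1 WT_clone library has 123900 CPM of Lamc1.

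Type IV collagen, the other network of basement membranes, set DXp replicate 1 apart. Col4a1 had 0 and 51355 counts in DXp, 79443 and 23204 in DXp_DXm, and 92225, 284971 and 103597 in WT_EV libraries. Col4a2, its neighbour on chromosome 8 read from a shared promoter region, had 4 and 8241 counts in DXp, 9976 and 3169 in DXp_DXm, and 41913, 120330 and 47680 in WT_EV libraries. A count of 0 allows up to 3 counts, counting error only. Rab20, the next gene beyond Col4a2 of those looked up, had 15 counts in DXp replicate 1 and 32 to 224 in the other 6 libraries, Naxd had 68 beside 134 to 852, and Cars2 had 77 beside 130 to 692, each the lowest of the 7. Irs2, on the side of Col4a1, had 1001 counts beside 1130 to 5207. All of these are raw counts, not scaled to library size, so the lowest count need not be the lowest level. Farther beyond Col4a2, Ing1 had 1834 counts beside 527 to 2522, and Ankrd10 had 4803 beside 728 to 4177. That same library had the lowest CPM of Lama1, Lamb1, Lamc1 and Agrn among all 7, and the highest of Nid1 and Nid2. Without it, 5 members were called in DXp against WT_EV, 1 higher and 4 lower, beside 59.7% of tested genes (28.8% higher and 30.9% lower). Of the 8 basement membrane collagens listed, 2 were tested, and neither was called in DXp (log2 change -2.98 for Col4a1 and -4.43 for Col4a2) or in DXp_DXm (-1.89 and -3.67).

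A list of other laminin chains and netrins gave these values. Lama4, a chain of vascular laminins, had 0.153 and 0.193 CPM in DXp, 3.65 and 2.20 CPM in DXp_DXm, and 0.563, 1.27 and 0.600 CPM in WT_EV libraries. It was lower in DXp (-2.19, adjusted p = 0.0159) and higher in DXp_DXm (1.83, adjusted p = 0.0148), with a difference of 4.02 (adjusted p = 0.0532). These values rest on few counts, 3 and 5 in DXp, 88 and 56 in DXp_DXm, and 10, 30 and 10 in WT_EV libraries. With offsets the DXp_DXm call was lost (0.72, adjusted p = 0.298). Ntn4, a netrin that binds laminin γ1, was higher in both, by 2.37 (adjusted p = 0.00325) in DXp and 1.51 (adjusted p = 0.0317) in DXp_DXm.

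Other linkers of basement membranes were called in both directions. Of 14 listed, 10 were tested, and 2 rose and 4 fell in DXp as well as in DXp_DXm, with medians of 0.05 and 0.20 beside -0.35 and -0.15 for all tested genes. With offsets 4 were higher and 1 lower in DXp, and 2 higher and 0 lower in DXp_DXm. Counts for this list and those that follow stand beside the shares of all tested genes called. As counted these were 32.2% higher and 40.1% lower in DXp, and 30.9% and 36% in DXp_DXm. With offsets they were 24.7% higher and 27% lower in DXp, and 21.6% and 22% in DXp_DXm. Whether a list differs from these shares was not tested. Fras1, a Fraser complex protein of embryonic basement membranes, was higher in DXp (log2 change 4.49, adjusted p = 0.001), with 8.33 and 83.0 CPM in DXp, 5.18 and 4.16 CPM in DXp_DXm, and 1.46, 1.77 and 2.88 CPM in WT_EV libraries. Fbln2, a fibulin that binds nidogen and perlecan, was lower in DXp (-4.76, adjusted p = 0.000415). It had 0.614 and 0.927 CPM in DXp, 7.55 and 4.87 CPM in DXp_DXm, and 12.8, 8.65 and 42.1 CPM in WT_EV libraries. Smoc1 and Tinagl1, secreted proteins of basement membranes, were lower in both groups, with changes of -1.51 to -2.86, and not called with offsets.

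Laminin and heparan sulfate receptors split in both directions. All 16 were tested, with 5 higher and 8 lower in DXp and 4 higher and 8 lower in DXp_DXm, and medians of -0.69 and -0.96. Itga6 and Itgb1, the subunits of the laminin receptor α6β1 integrin, rose in DXp by 3.77 (adjusted p = 5.17e-05) and 2.39 (adjusted p = 5.37e-05) on the log2 scale, and with offsets by 2.63 and 1.36. In DXp_DXm libraries Itga6 had 262 and 191 CPM, beside 14.2 to 45.4 CPM in WT_EV libraries. Itgb1 had 1673 and 1802 CPM in DXp_DXm, beside 314 to 577 CPM in WT_EV libraries. Itga3, the α subunit of another laminin receptor, fell by 3.8 in DXp (adjusted p = 1.43e-05) and by 3.83 in DXp_DXm (adjusted p = 2.19e-05), and with offsets by 1.19 and 1.31. Pomt1, an enzyme that starts the sugar chain by which dystroglycan holds laminin, perlecan and agrin, fell in both as well (-2.87, adjusted p = 3.2e-05 in DXp, and -2.71, adjusted p = 6.34e-05 in DXp_DXm). Bcam, a receptor for laminin α5, fell by 5.67 in DXp_DXm (adjusted p = 2.66e-05). It had 0.373 and 0.786 CPM there, 1.3 and 2.4 CPM in DXp, and 17.8 to 38.8 CPM in WT_EV libraries. With offsets the counts over the 16 genes were 6 higher and 6 lower in DXp and 4 higher and 6 lower in DXp_DXm.

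Heparan sulfate enzymes, which build and trim the chains on perlecan and agrin, were all tested. Of these 19 genes, 4 rose and 10 fell in DXp (median -1.32), and 6 rose and 9 fell in DXp_DXm (median -0.68). Ext2, a subunit of the polymerase, fell by 2.76 in DXp (adjusted p = 1.69e-05) and by 2.02 in DXp_DXm (adjusted p = 0.000122). Sulf2, a sulfatase of the finished chain, fell by 3.76 in DXp (adjusted p = 8.7e-06) and by 2.50 in DXp_DXm (adjusted p = 8.61e-05). With offsets, 5 rose and 5 fell in DXp, and 2 rose and 2 fell in DXp_DXm, where Sulf2 was no longer called (-0.50, adjusted p = 0.172). Of the other list genes named with a called change against WT_EV and no offset value, each kept its direction and call with offsets.

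The folding and secretion list had 15 genes, all tested. In DXp 6 rose and 7 fell, and in DXp_DXm 7 rose and 4 fell, with medians of 0.02 and 0.19. With offsets 6 rose and 1 fell in DXp, and 8 rose and 2 fell in DXp_DXm. Hsp90b1 and Hspa5, chaperones of the endoplasmic reticulum where laminin trimers assemble, rose by 3.41 (adjusted p = 6.09e-06) and 2.99 (adjusted p = 1.21e-05) in DXp, and by 3.79 (adjusted p = 8.34e-06) and 2.79 (adjusted p = 2.7e-05) in DXp_DXm. Plod2 rose and Plod1 fell, both of them lysyl hydroxylases, by 3.85 (adjusted p = 5.95e-06) and 3.32 (adjusted p = 5.25e-06) in DXp, with the same directions in DXp_DXm. All 4 kept these directions and calls with offsets in both comparisons. Among 9 tested proteases and inhibitors of 12 listed, 1 rose and 3 fell in each comparison, with medians of -0.56 and -0.49. With offsets 2 rose and 3 fell in DXp, and 3 rose and 4 fell in DXp_DXm. Timp3, a matrix-bound inhibitor of metalloproteinases, was the one that rose as counted (1.97, adjusted p = 6.89e-05 in DXp, and 2.7, adjusted p = 1.84e-05 in DXp_DXm), while Mmp15, a membrane-bound metalloproteinase, fell by 5.46 (adjusted p = 4.46e-06) in DXp and by 3.98 (adjusted p = 9.94e-06) in DXp_DXm. In DXp_DXm against DXp, edgeR called none of the tested genes in any of these lists.

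Genes whose profile over the 7 libraries was most like that of the major trimer were sought by the root-mean-square difference in centred log2 CPM from the mean of Lama1, Lamb1 and Lamc1. Among the 5 nearest were Eif4g3 (0.131), Pan2 (0.136), Gm23833 (0.140) and Larp1 (0.142). Their exonic GC content was 48.8% to 53.7%, within the range of 49.2% to 53.7% of the 3 chains or just below it. The chains themselves lay at 0.205 (Lamb1), 0.315 (Lamc1) and 0.493 (Lama1) from their mean. Of the other members Nid2 was the nearest (0.470) and Hspg2 the farthest (2.36).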

How the data were processed

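Per the submitters' processing notes, the authors' tools were FastQC, the aligner STAR 2.7.9a, the genome GRCm38 (mm10) and featureCounts 2.0.1. The values the authors deposited are raw counts per gene. The sources used here give no strand setting, annotation release or RNA selection. Gene IDs were matched to GENCODE M21 for symbols, length and GC content, and 54821 of 55401 genes had the same start and end.

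After filterByExpr and TMM scaling, groups were compared by the robust quasi-likelihood test of edgeR 4.0.16 (R 4.3.3). SE is the log2 change over the square root of F, and 95% intervals use a t distribution with 4 (7 libraries) or 5 (9 libraries) degrees of freedom, so they can be wider than the p implies. The offsets are natural splines with 5 degrees of freedom each for GC content and log length, fitted per library. All members are named, list genes from the 4 lowest p-values per list and comparison, and the 5 genes most alike in profile. Of the genes this rule names, 2 are not reported here. DXp replicate numbers follow the "rep" in the titles. The members and lists were chosen with earlier results of these data known. The fit was tested on simulated data. DESeq2 1.42.0, other scalings, no filter, the replicate block and leaving out each library were alternatives.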

Additional observations from a re-analysis of the deposited data

How the results depend on the processing

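For the 5 changes called lower and Nid1 against WT_EV, scaling by DESeq2 size factors, library totals, DESeq2, the filter on low counts, the protein-coding subset and the replicate block kept the direction and the call in both deletion groups. Library totals moved the median of all tested genes to -0.83 in DXp and -0.48 in DXp_DXm, beside -0.35 and -0.15 under TMM. The share of called genes that were higher moved by over 10 points in DXp_DXm against DXp, with 47.8% under size factors and 75.8% under totals beside 63.2% under TMM, and in WT_clone against WT_EV, with 24.3% under totals beside 49.9%. With GC and length offsets the members called were 4 higher and 1 lower in DXp and 3 higher and 2 lower in DXp_DXm, and with the replicate block added 4 and 1 in DXp and 3 and 3 in DXp_DXm. The log2 changes that then changed sign were, in DXp, Lama1 (0.18, with the block 0.22) and Agrn (0.96, with the block 0.89). In DXp_DXm they were Lama1 (0.094, with the block 0.18), Nid2 (1.5, with the block 1.55) and Agrn (0.80, with the block 0.82).

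The near-zero changes took either sign. In DXp against WT_EV, Lamb1 was 0.12 with size factors and with DESeq2, 0.023 with the replicate block and 0.036 with the block and offsets. Nid2 was -0.49 and Lamc1 -0.25 with library totals, and Nid2 was -0.063 with the block and -0.021 in the protein-coding subset. Lamc1 in DXp_DXm was -0.24 with library totals. In DXp_DXm against DXp, Lama1 was -0.057 with size factors and DESeq2, -0.083 with offsets and -0.040 with block and offsets, and Lamc1 was 0.0054 with library totals. Leaving out 1 library at a time, changes in DXp ranged from -0.39 to 0.40 (Lamb1), -0.16 to 0.64 (Lamc1) and -0.22 to 0.30 (Nid2), and that of Nid2 in DXp_DXm from -0.41 to 0.062. Between the deletions they ranged from -0.47 to 0.70 (Lama1), -0.54 to 0.18 (Lamb1), -0.48 to 0.25 (Lamc1), -0.49 to 0.10 (Nid2) and -0.80 to 0.88 (Agrn).

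Between the deletions 1 member instead of 0 was called, lower, with DESeq2 (Nid1) and with no filter on low counts (Nid1, adjusted p = 0.0292), and 0 to 1 with 1 library left out. All tested genes called there numbered 68, 10 in the 4 deletion libraries alone, 42 with offsets, 104 with block and offsets, 1167 with DESeq2, 1436 without the filter and 2 to 480 with 1 library left out. The deviations of same-numbered DXp and DXp_DXm libraries correlated at -0.20, and those of the other same-numbered pairs within 0.06 of 0. No pairing by these numbers showed. The DXp titles also carry a second number that runs opposite to the first. With 2 libraries in each deletion group the deviations mirror each other. Matching by the second number therefore had to give 0.20, which is no separate observation and cannot show which number pairs the libraries. A block with the DXp numbers crossed in this way, added after seeing the data, called 1573 genes and 1 member, lower, against 92 genes and 0 members with the numbers as given. The replicate block without offsets changed no other call.

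Against WT_clone, members called lower were 0 with offsets, with or without the block, in either deletion group. They were 2 without the filter in either group and 2 with DESeq2 in DXp_DXm, and ranged from 0 to 2 in DXp and 1 to 2 in DXp_DXm with 1 library left out. Lamc1 in DXp was 0.14 with block and offsets. With 1 library left out it ranged from -1.97 to 0.19 in DXp and -2.15 to 0.050 in DXp_DXm. In WT_clone against WT_EV Lamc1 was called higher without the filter, so that 1 member was called instead of 0, as in 1 of the fits with a library left out, where its change ranged from -0.32 to 1.82. Called genes with offsets numbered 7921 of 11079 in DXp and 6670 of 10243 in DXp_DXm against WT_EV, and 557 of 1329 and 200 of 824 against WT_clone. With block and offsets they numbered 7233, 5850, 486 and 148. The cause of these shifts was not tested. A group of 2 libraries limits what a difference between the deletions can show.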
